A study of Takifugu rubripes with 9 samples.

Results

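The miR-99, miR-100 and miR-125 families were taken as the miRNAs whose name carries one of these 3 numbers, with or without a letter (such as mir-99, mir-100, mir-125, mir-125a and mir-125b), in the sequenced small RNAs of adult *Takifugu rubripes*. The rule found 17 of 631 names: 12 names of a mature arm and 5 precursor names, which hold reads that matched a precursor without being recorded as a form of its mature miRNA. Together they held 320 of the 8194 distinct sequences and 333223 reads, which were 6.37% of all annotated reads. The libraries came from brain, eye, heart, slow muscle, intestine, liver, ovaries and testes of wild-type fish, dissected from 2 adults, with 1 library per tissue and no treatment. For the somatic tissues, whether a library holds RNA of both fish is not given in the sources used here. With 2 adults, ovaries and testes must be from different fish. Differences between these 2 libraries therefore cannot be told apart from differences between the 2 animals. Fast muscle was not analysed here. Because each tissue had 1 library, no value carries a replicate error. Every test on reads therefore compares libraries, not tissues, and every interval covers counting error only. Copies of 1 molecule made by amplification were counted separately, so the intervals may be too narrow even for that error.

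miRNAs are short RNAs that guide Argonaute proteins to messenger RNAs, and they pair mainly through the seed, the bases that follow the first base of the mature strand. miR-100 is among the oldest animal miRNAs, and miR-99 is its vertebrate sister with the same seed. miR-125 is the vertebrate relative of lin-4, the first miRNA described in *Caenorhabditis elegans*, where it times larval development. In flies and vertebrates miR-100 or miR-99, let-7 and miR-125 are often transcribed from 1 locus, and miR-125b is known as an abundant miRNA of the nervous system. In the fTakRub1.2 annotation of RefSeq, mir100, mirlet7a-1 and mir125b follow each other in this order with no other gene starting between them, while mir125a lies apart between lncRNA genes. Names alone were taken from that annotation, since the deposited files give no build.

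The sequences below are the database entries to which the reads of the 6 main 5p arms matched, shown because the arms fall into 2 seed groups and differ by few bases. Capitals mark the seed (bases 2 to 8), and T stands for U as in the files.
miR-100-5p: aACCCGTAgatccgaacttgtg
miR-99-5p: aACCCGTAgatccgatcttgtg
miR-99b-5p: aACCCGTAgatccgaacttgcgg
miR-125b-5p: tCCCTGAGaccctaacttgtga
miR-125c-5p: tCCCTGAGaccctaactcgtga
miR-125a-5p: tCCCTGAGacccttaacctgtg

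Counted from 1 at the 5′ end of the first-named entry, miR-99-5p differed from miR-100-5p by A16T, miR-99b-5p differed from miR-100-5p by T21C, and miR-125c-5p differed from miR-125b-5p by T18C. miR-125a-5p shared its first 13 bases with miR-125b-5p. The entries of miR-100, miR-125b and miR-125a were those of *Takifugu* itself, which the files call Fugu rubripes. Those of miR-99 and miR-125c were from zebrafish, and that of miR-99b was from the lizard *Anolis carolinensis*. The seed of miR-100 was carried by 168360 member reads of a 5p arm and the seed of miR-125b by 158383, which were 50.6% and 47.6% of them. The share with the miR-100 seed was highest in slow muscle (64.1%) and lowest in testes (23.1%).

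Levels are given as RPM, the reads of a name per 1000000 reads of 18–25 nt in the library. The deposited reads were 33.1% to 37.7% of the 18–25 nt reads in the 6 somatic libraries, 11.3% in ovaries and 2.58% in testes, so an RPM in the gonads also carries this smaller annotated share. The labelled tissues were checked against known tissue miRNAs. miR-124-3p of neurons stood at 87327 RPM in eye and 61669 RPM in brain and was at most 217 RPM elsewhere. miR-9-5p, also listed for neurons, had the reverse order, with 10926.5 RPM in brain and 1713 in eye, and was at most 31.5 RPM elsewhere. miR-122-5p peaked in liver, miR-192-5p in intestine, miR-1-3p in slow muscle, miR-499-5p in heart and miR-204a-5p in eye, and miR-202-5p had reads only in ovaries and testes. Slow muscle also held 4405 RPM of miR-192-5p, 2099 of miR-204a-5p and 6146 of the glial miR-338-3p, against 44.0, 156 and 583 in heart. The other listed glial miRNA, miR-219-5p, stood at 159.9 RPM in brain and 4.32 in eye and had no reads in slow muscle or heart. miR-451-5p of erythrocytes ranged from 185 RPM in testes to 30811 RPM in heart. miR-144-5p, also listed for erythrocytes, had no reads under that arm name among the annotated reads of the 8 libraries. The paper does list it among the miRNAs higher in heart than in fast muscle, and reads it annotated under looser criteria were not used here. Whether the content shown by these markers has a part in the results below was not tested.

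All 8 arms that reached 100 RPM in a library were highest in brain. By sequence, reads named miR-125-5p fell almost wholly to miR-125b and those named miR-100a-5p to miR-100, so the 8 names are not 8 separate miRNAs. Brain was the highest library for 56 of the 215 names at that level, a background of 26%. Of the 8 arms, 7 were lowest in testes, as were (ties included) 80% of the 215 names, and the exception was miR-125a-5p, which was lowest in intestine. The low end depended on the denominator. Scaled to annotated reads or by TMM factors, 7 of the 8 arms were lowest in intestine and 1 (miR-99-5p) in testes. Of the 215 names, intestine was lowest for 19.1% per annotated read and for 16.3% with TMM, and testes for 38.6% and 49.3%. Brain was still highest for 7 arms per annotated read, where miR-99b-5p was highest in ovaries, against 22.8% of names, and for 8 with TMM, against 26%. Whether brain holds more cells with these miRNAs or more miRNA per cell cannot be told apart in bulk tissue.

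miR-100-5p, which targets the mTOR kinase in mammalian cells, was the most abundant member and ranked 8th of all 631 names by reads. Brain held 25752 RPM, heart 14677, eye 9664, slow muscle 7455, liver 6267, ovaries 2555, intestine 2002 and testes 258. No neighbours in this order had overlapping 95% Wilson intervals, and brain stood 12.9-fold above intestine, the lowest somatic library. Within brain it ranked 2nd of all names, against 21st in intestine.

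miR-125b-5p, a repressor of p53 in human and zebrafish cells, followed with 103791 reads. Brain held 17295 RPM, eye 8184, heart 7517, liver 3728, slow muscle 3265, ovaries 2447, intestine 1158 and testes 485. Again no neighbouring intervals overlapped. The order was like that of miR-100-5p except that eye exceeded heart and liver exceeded slow muscle.

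By RPM, miR-125a-5p was the arm most biased to brain. Brain held 9703 RPM, eye 2099, heart 1981, liver 955, ovaries 902, slow muscle 689, testes 381 and intestine 365. The intervals of eye and heart, of liver and ovaries, and of testes and intestine overlapped. Brain was 4.62-fold above eye, a wider step than for miR-100-5p (2.66-fold) or miR-125b-5p (2.11-fold). The specificity index tau, which is 0 for an even level and 1 for reads in a single library, was 0.89 for miR-125a-5p. It was between 0.68 (miR-99b-5p) and 0.81 (miR-99-5p) for the other 7 arms. None of the 8 reached 0.9, whereas 89 of the 215 names did, and the median tau was 0.77 for the 8 arms and 0.85 for the 215 names. Per annotated read tau was 0.793 for miR-125a-5p and 0.784 for miR-99-5p. On log2(RPM + 1) it was 0.264 for miR-125a-5p, below miR-100a-5p (0.392), miR-99-5p (0.341), miR-125c-5p (0.276) and miR-125-5p (0.275). It was lower still for miR-99b-5p (0.253), miR-100-5p (0.192) and miR-125b-5p (0.1905). The order of the arms by tau thus depended on the scale.

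**Figure D1:**
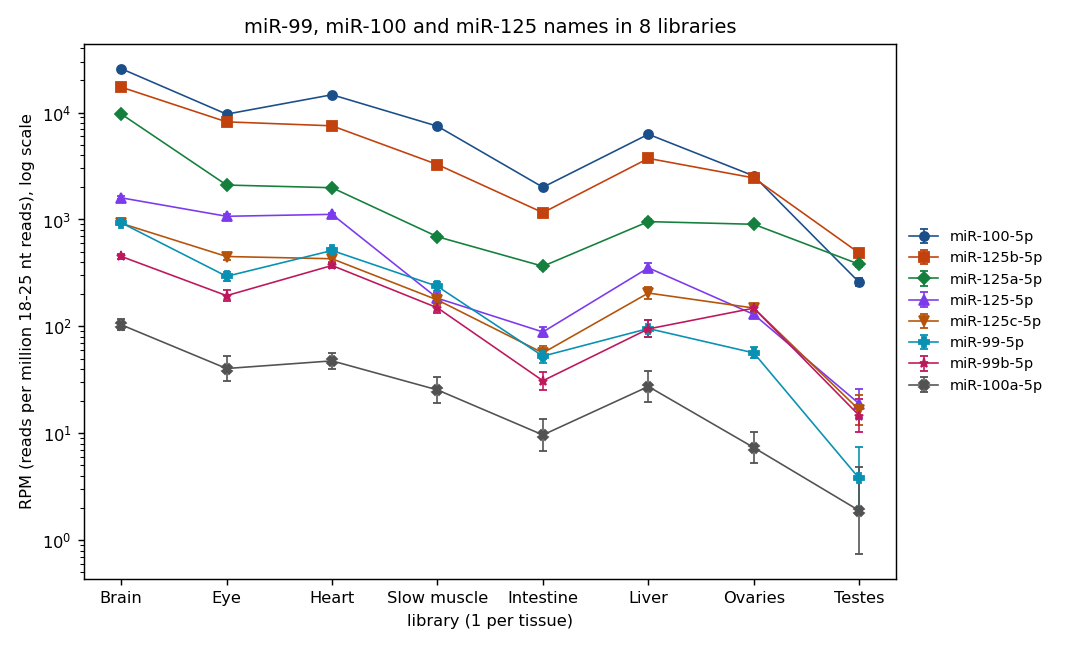
Level of each of the 8 arms that reached 100 RPM in a library, in RPM on a log scale (y axis), by library (x axis, 1 library per tissue). Points are single libraries, bars are 95% Wilson intervals for counting error, and the lines only join the points of an arm. All 8 arms are highest in brain, and miR-125a-5p falls from 9703 RPM in brain to 2099 RPM in eye.

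The other 5 arms were far scarcer. miR-99-5p, the sister of miR-100, stood at 932 RPM in brain, with 513 in heart, 294 in eye, 237 for slow muscle, 95.5 in liver, 56.5 for ovaries, 52.7 for intestine and 3.78 in testes, where it rested on 8 reads. Its order over the libraries was that of miR-100-5p, with overlapping intervals only for ovaries and intestine. miR-125c-5p stood at 920 RPM in brain, with 450.5 for eye, 429 for heart, 205 for liver, 177 for slow muscle, 149 for ovaries, 56.5 for intestine and 16.6 for testes. This was the order of miR-125b-5p, but the intervals overlapped between eye and heart, between liver and slow muscle, and between slow muscle and ovaries.

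miR-99b-5p had the order of miR-100-5p except that ovaries came before liver. It stood at 452 RPM in brain, with 371 for heart, 194 for eye, 149 for slow muscle, 148 for ovaries, 94.6 for liver, 31.0 for intestine and 14.7 for testes, so that ovaries stood level with slow muscle. miR-125-5p, a name without a letter, stood at 1595 RPM in brain, with 1117 for heart, 1071 for eye, 353 for liver, 183 for slow muscle, 129 for ovaries, 88.7 for intestine and 18.9 for testes. miR-100a-5p ranged from 1.89 RPM in testes (4 reads) to 104 RPM in brain. The other 4 arm names (miR-100b-5p, miR-99a-5p, miR-125a-3p and miR-125b-3p) held between 4 and 142 reads over all libraries, and the 5 precursor names held 777.

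By sequence, several of these names belonged together. When each sequence was placed on the entry with the fewest mismatches, 99.9% of the reads named miR-125-5p fell to miR-125b, and 99.8% of those named miR-100a-5p fell to miR-100. The name miR-125-5p was chiefly the miR-125b entry with 1 added A, matched to an entry of the annelid *Capitella teleta*. The names miR-99-5p, miR-99b-5p, miR-125a-5p and miR-125c-5p kept 98.0% or more of their reads in a group of their own. The miR-125b group held 114948 reads over the 8 libraries, the miR-100 group 161217 and the miR-125a group 41754.

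The ratio of miR-100-5p to miR-125b-5p was compared within each library, where the library total cancels. Slow muscle had 2.28 reads of miR-100-5p per read of miR-125b-5p (95% Clopper-Pearson interval 2.22 to 2.35), heart had 1.95 (1.92 to 1.99), intestine 1.73 (1.66 to 1.80), liver 1.68 (1.62 to 1.74), brain 1.49 (1.47 to 1.51), eye 1.18 (1.15 to 1.21), ovaries 1.04 (1.02 to 1.07) and testes 0.532 (0.479 to 0.591). Both muscle libraries were highest and both gonad libraries lowest, and testes were the only library with more miR-125b-5p than miR-100-5p. The ratio differed in 27 of the 28 pairs of libraries by a two-sided Fisher's exact test with Benjamini-Hochberg adjustment over the 28 pairs. Intestine and liver were the exception, with a ratio of ratios of 1.03 and an adjusted p of 0.310. Testes and ovaries, both gonads, differed 1.96-fold (adjusted p = 2.29e-36).

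Grouping the reads by sequence lowered the ratio in every library but left the order of the 8 libraries as it was, from 2.15 in slow muscle to 0.513 in testes. The value in ovaries was then 0.988 (0.964 to 1.01), so that ovaries could not be told from an equal number of reads. When only reads identical to an entry were counted, miR-125b-5p exceeded miR-100-5p in all 8 libraries, from 0.131 reads of miR-100-5p per read of miR-125b-5p in testes to 0.934 in slow muscle.

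miR-125a-5p relative to miR-125b-5p gave another order of the libraries. Per read of miR-125b-5p there were 0.786 reads of miR-125a-5p in testes (0.715 to 0.862), 0.561 in brain (0.553 to 0.570), 0.368 in ovaries (0.356 to 0.382) and 0.315 in intestine (0.296 to 0.336). The ratio in heart, eye, liver and slow muscle was 0.264, 0.256, 0.256 and 0.211. Brain and both gonads thus held the largest shares of miR-125a-5p. Eye, at 0.256, lay below these 3 libraries. Whether the cell content of the tissues has a part in this order was not tested.

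**Figure D2:**
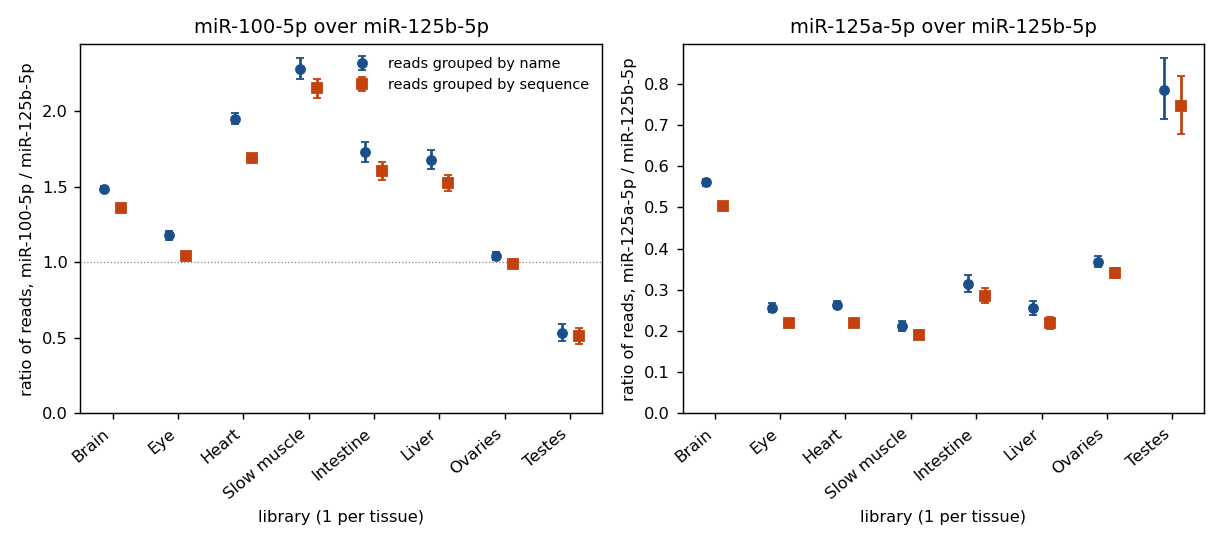
Reads of miR-100-5p per read of miR-125b-5p (left y axis) and of miR-125a-5p per read of miR-125b-5p (right y axis) in each of the 8 libraries (x axes), with reads grouped by the names in the files (circles) or by sequence (squares). Bars are 95% Clopper-Pearson intervals, and the dotted line marks equal reads. The left ratio runs from 2.28 in slow muscle to 0.532 in testes by name.

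miR-125c-5p kept a nearly fixed proportion to miR-125b-5p. There were between 0.0488 (intestine) and 0.0607 (ovaries) reads of miR-125c-5p per read of miR-125b-5p in 7 libraries, and 0.0341 (0.0236 to 0.0478) in testes. miR-99-5p was less fixed relative to miR-100-5p, with 0.0362 reads per read in brain, 0.0349 in heart, 0.0304 in eye, 0.0152 in liver and 0.0147 in testes. Per read of miR-125c-5p there were 1.34 reads of miR-99-5p in slow muscle, 1.20 in heart, 1.01 in brain, 0.380 in ovaries and 0.229 in testes. Slow muscle and heart were again highest and the gonads lowest. miR-125c-5p and miR-99-5p were matched to zebrafish entries, and whether their reads come from *Takifugu* genes of their own was not tested.

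let-7a-5p, the middle partner of the mir100 locus, was more even across the somatic libraries than its neighbours. let-7 is the miRNA that follows lin-4 in worm development, and in fish its mature sequence is made from several gene copies, which these reads cannot tell apart. let-7a-5p lay between 3409 RPM in eye and 6377 RPM in heart in the 6 somatic libraries, a range of 1.87-fold, while miR-100-5p spanned 12.9-fold and miR-125b-5p 14.9-fold. In intestine let-7a-5p reached 5312 RPM, and miR-100-5p was at 0.377 reads per read of let-7a-5p (0.367 to 0.388). This was the only library with more let-7a-5p than miR-100-5p. The ratio was 4.19 in brain, 2.83 in eye and 2.30 in heart, and slow muscle (1.82) and liver (1.80) were close. In ovaries let-7a-5p stood at 353 RPM and the ratio at 7.23 (6.87 to 7.62), the highest of the 8 libraries, whereas testes with 174 RPM of let-7a-5p had 1.49 (1.30 to 1.70).

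The list of let-7 5p arms held 11 names, of which 9 reached 100 RPM in a library. Of these 9, let-7c-5p and let-7d-5p were highest in brain, at 256 and 924 RPM. The others peaked in heart (let-7-5p, let-7a-5p and let-7e-5p), intestine (let-7b-5p and let-7h-5p) or liver (let-7g-5p and let-7j-5p).

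miR-10, a Hox cluster miRNA whose 5′ sequence resembles that of miR-100, had 5 names of a 5p arm, and 3 of them reached 100 RPM. miR-10c-5p was highest in liver (1968 RPM) and miR-10b-5p and miR-10d-5p in slow muscle (912 and 110 RPM). In eye, where miR-100-5p stood at 9664 RPM, these 3 arms lay between 1.44 and 10.1 RPM.

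**Figure D3:**
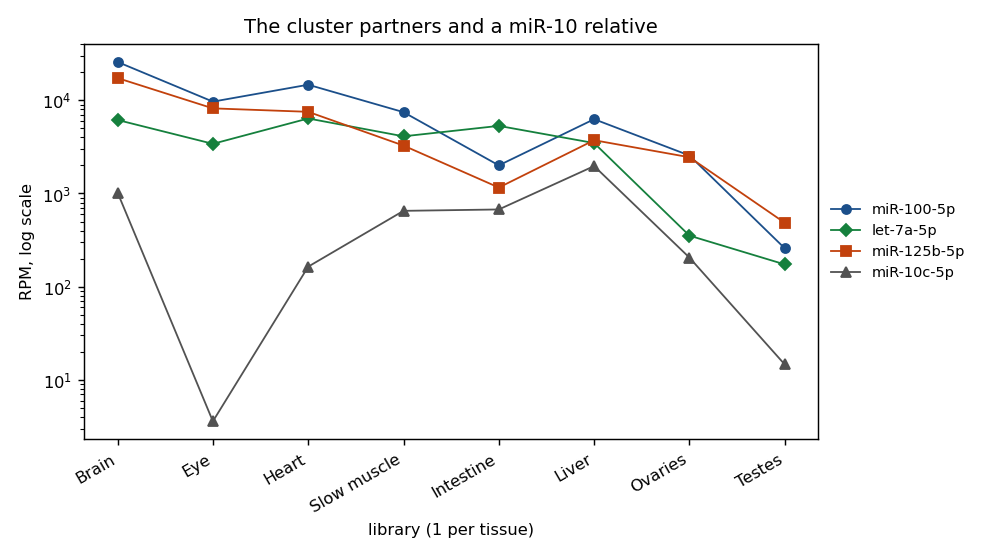
RPM on a log scale (y axis) of miR-100-5p, let-7a-5p and miR-125b-5p, whose genes lie next to each other, and of miR-10c-5p, a relative of miR-100, in the 8 libraries (x axis). Points are single libraries and lines join the points of an arm. let-7a-5p stays between 3409 and 6377 RPM in the somatic libraries while miR-100-5p runs from 2002 to 25752 RPM.

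Outside the miR-99, miR-100 and miR-125 names, those whose levels over the 8 libraries were most like those of miR-100-5p, by Pearson's r of log2(RPM + 1), were the precursor name of mir-130b and miR-27b-3p (both r = 0.96), miR-23b-3p, miR-190-5p and the precursor name of mir-190 (all r = 0.94). For miR-125b-5p the nearest of these other names were the precursor name of mir-181b (0.93), miR-181a-5p (0.92), miR-218a-5p, miR-2188-5p and miR-34a-5p (each 0.91). Among the members, miR-99-5p had r = 0.990 with miR-100-5p, miR-125c-5p had r = 0.996 with miR-125b-5p, and miR-100-5p had r = 0.96 with miR-125b-5p. miR-125a-5p had r = 0.80 and let-7a-5p r = 0.81 with miR-100-5p. With miR-125b-5p, miR-125a-5p had r = 0.92 and let-7a-5p r = 0.68. All these points share the low annotated share of the gonad libraries.

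For 4 pairs of related tissues, an exact binomial test (two-sided) was applied to the reads of each name, with Benjamini-Hochberg adjustment over all names. Calls required an adjusted p below 0.05, a 1.5-fold difference and 1000 RPM in whichever library was higher. Between brain and eye, 4 member arms reached 1000 RPM and 3 of them were called higher in brain, against 50% of 62 names that could pass. These were miR-125a-5p (4.62-fold, interval 4.45 to 4.81), miR-100-5p (2.66-fold, 2.62 to 2.71) and miR-125b-5p (2.11-fold, 2.07 to 2.16), each with a p below the smallest number that could be stored, which was also so for miR-125b-5p and for miR-100-5p in each of the other 3 pairs. miR-125-5p was 1.49-fold higher (adjusted p = 1.77e-41) and missed the ratio of 1.5. None was called higher in eye, against 27.4% of names.

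Between heart and slow muscle, all 4 members that reached 1000 RPM were called higher in heart, against 40% of 55 names, and none was called higher in slow muscle, against 25.5%. miR-125-5p differed most, at 6.09-fold (5.45 to 6.82), from 1117 RPM to 183 RPM. miR-125a-5p was 2.87-fold higher in heart (adjusted p = 1.94e-303), miR-125b-5p 2.30-fold (2.24 to 2.37) and miR-100-5p 1.97-fold (1.93 to 2.01). The name miR-125-5p holds the miR-125b form with the added A, which the name miR-125b-5p leaves out, and the intervals of these names did not overlap.

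Between intestine and liver, miR-100-5p and miR-125b-5p were the members that could pass. Both were called higher in liver, against 60% of 60 names, and none was called higher in intestine, against 25%. The level in intestine was 0.320 of that in liver for miR-100-5p (0.309 to 0.330) and 0.311 for miR-125b-5p (0.298 to 0.324), while the median ratio of the 60 names was 0.494.

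Between ovaries and testes, the same pair could pass and both were called higher in ovaries, against 76.5% of 17 names, and none was called higher in testes, against 11.8%. miR-100-5p was 9.89-fold higher in ovaries (9.08 to 10.8) and miR-125b-5p 5.04-fold (4.73 to 5.38), and the median ratio of the 17 names was 8.82. Scaled to annotated reads instead, the calls were split. All ratios of ovaries to testes then fell by 2.13 on the log2 scale, 6 members could pass, 4 were called higher in ovaries (36% of 75 names) and miR-125a-5p was called higher in testes (46.7% of 75 names). On that scale, per 1000000 annotated reads, miR-125a-5p stood at 14778 in testes and 7983 in ovaries, miR-125b-5p at 18812 and 21669, and miR-100-5p at 10011 and 22622. With TMM factors the ratios fell by 1.38 on the log2 scale and 3 members could pass. Of these, miR-100-5p and miR-125b-5p were still called higher in ovaries, against 41.9% of 31 names, and none higher in testes, against 45.2%. miR-125a-5p, at 1921 in ovaries and 2118 in testes on that scale, was not called. The 31 names were split into 13 called higher in ovaries and 14 in testes, against 13 and 2 of 17 before.

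For miR-100-5p the mean was 1406 RPM in the gonads and 10969.5 RPM in the 6 somatic libraries (p = 0.214 by the exact two-sided permutation test), and the groups overlapped, with intestine below ovaries. The smallest p that 2 libraries against 6 allow is 0.0357, which stays above 0.05 after adjustment over 631 names unless most of them reach it. The 0 names with an adjusted p under 0.05, against 33 with an unadjusted one, therefore say nothing about the members. Of the 8 arms, 1 (miR-100a-5p, whose reads fell to miR-100 by sequence) lay lower in both gonads than in every somatic library, against 45.6% of the 215 names. Scaled to annotated reads none of the 8 did, against 14% of names, and miR-125b-5p averaged 20240.5 per 1000000 annotated reads in the gonads and 19668 in the somatic libraries.

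The 3′ ends of miR-100-5p and miR-125b-5p varied around those of the entries. The forms below, with the base past the entry in capitals, were the main ones.
miR-100-5p, 21 nt: aacccgtagatccgaacttgt
miR-100-5p, added A: aacccgtagatccgaacttgtgA
miR-100-5p, added T: aacccgtagatccgaacttgtgT
miR-100-5p, added G: aacccgtagatccgaacttgtgG
miR-100-5p, added C: aacccgtagatccgaacttgtgC
miR-125b-5p, added A: tccctgagaccctaacttgtgaA
miR-125b-5p, added C: tccctgagaccctaacttgtgaC

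Of 159541 miR-100 reads with the start of the entry, 62250 were 21 nt, 24138 were the 22-nt entry and 65226 carried 1 base more. Longer reads that ended in G were the ones matched to the *Takifugu* entry, and they numbered 2040 of the 65226. A closed 39212 of them (60.1%), T 22066 (33.8%) and C 1908. For miR-125b, 82408 of 114133 reads were the 22-nt entry and 12454 were 1 base longer, of which 9593 (77.0%) carried A and 1368 the C matched to the *Takifugu* entry. The other longer forms had been matched to entries of other species, such as the limpet *Lottia gigantea* for the added A and the lancelet *Branchiostoma floridae* for the added T of miR-100. Which longer forms could be recorded thus depended on the entries in the database, so these shares are compared between libraries and not between arms.

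In 7 libraries the 21-nt form was the most common form of miR-100-5p, and in liver it was the form with the added A. Liver held 2221 reads of that form and 1859 of the 21-nt form, a ratio of 1.19 (1.12 to 1.27). The ratio was 0.830 in heart, 0.748 in eye, 0.710 in slow muscle, 0.694 in intestine, 0.548 in testes, 0.501 in brain and 0.446 in ovaries. The interval in heart, the nearest of the 7, was 0.808 to 0.851. Liver was singled out for this form, so the difference carries no test. The share of reads 1 base longer was 33.4% in ovaries and 48.6% in heart at the ends of its range. In ovaries G closed 0.545% (0.360 to 0.823) of the longer miR-100 reads, against 2.94% to 3.62% in the somatic libraries, and testes had 2 such reads of 209.

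The longer form of miR-125b-5p varied among libraries in a different order. The share of the 1-base-longer reads among these and the 22-nt entry was 16.8% in heart, 14.7% in eye, 13.4% in liver, 12.5% in brain, 10.7% in intestine, 10.3% in ovaries, 8.76% in slow muscle and 5.43% in testes. In ovaries A made up 53.5% (50.4 to 56.6) of the longer reads and C 22.5%, while A made up 64.2% to 86.2% in the 6 somatic libraries. Testes lay within that range, with A in 81.0% (66.7 to 90.0) of 42 longer reads. For miR-100, A made up 55.9% (54.4 to 57.4) of the longer reads in ovaries and 55.3% (54.1 to 56.6) in slow muscle, below the 58.7% to 68.4% of the other 6 libraries, of which intestine (57.0 to 60.5) overlapped ovaries.

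**Figure D4:**
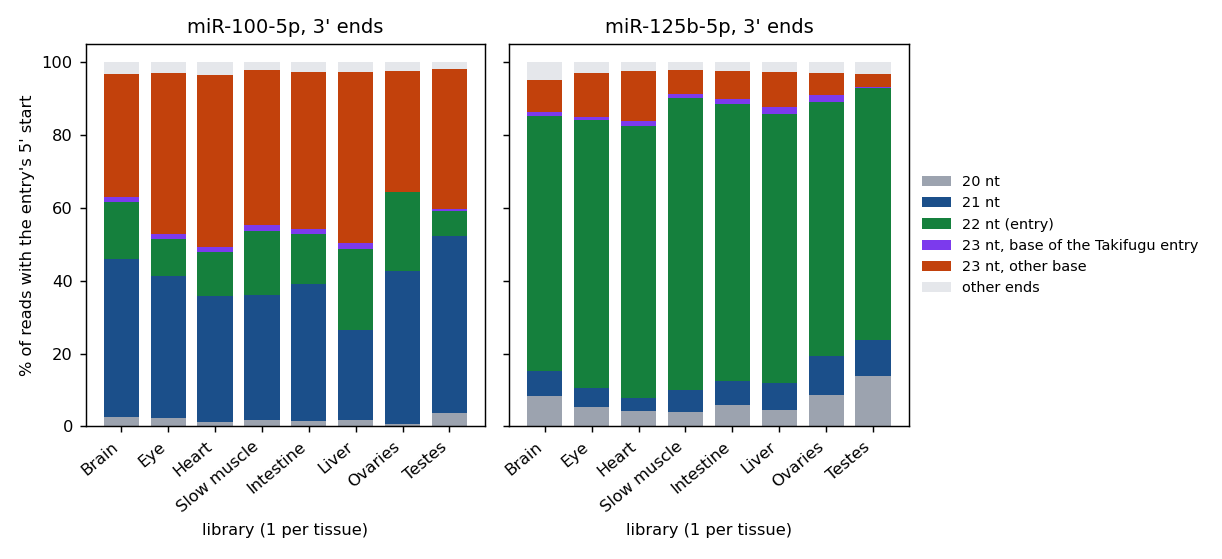
Share of the reads that start at the first base of the entry (y axis, in percent) by length and added base, for miR-100-5p (left) and miR-125b-5p (right) in the 8 libraries (x axes). Stacked bars sum to 100%. In miR-100-5p the 21-nt form and forms 1 base longer than the entry dominate, and in liver the 21-nt share falls to 24.7%, while miR-125b-5p keeps 69.1% to 80.1% in its 22-nt entry form.

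The reads named miR-99b-5p held a 21-nt form, aacccgtagatccgaacttgC, with the changed base in capitals, and forms of 22 and 23 nt that go on as the entry does. The 21-nt form has the length of the commonest miR-100 form and differs from it by T21C. It made up 11.8% (11.0 to 12.7) of the 21-nt reads of both kinds in ovaries and 10.6% (7.58 to 14.7) in testes, but 2.43% in intestine, 2.64% in brain, 3.23% in liver, 3.42% in eye, 3.99% in slow muscle and, as the highest somatic share, 5.67% (5.29 to 6.07) in heart. The 22- and 23-nt forms showed the opposite. They numbered 386 against 802 reads of the 21-nt form in brain, 83 against 184 in eye and 51 against 62 in liver, but 13 against 680 in ovaries and 0 against 31 in testes. The gonad reads named miR-99b-5p were thus nearly all 21 nt long, and whether they come from a gene of their own was not tested.

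miR-125a-5p had 3 main ends and a second start, shown with the seed of each in capitals.
miR-125a-5p, 21 nt: tCCCTGAGacccttaacctgt
miR-125a-5p, 23 nt: tCCCTGAGacccttaacctgtga
miR-125a-5p, start at base 2: cCCTGAGAcccttaacctgtga

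The 21-nt form led with 21974 reads, followed by the 23-nt form with 8937 and the 22-nt entry with 3269. In heart the 23-nt form (1830 reads) came level with the 21-nt form (1810 reads), a ratio of 1.01 (0.947 to 1.08), whereas the 21-nt form led in the other 7 libraries. The ratio was 0.697 in eye and between 0.267 and 0.462 in the other 6. Heart was likewise singled out for this ratio, which carries no test.

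The form that starts at base 2 shifts the seed by 1 base, and its share varied with the 3′ end. Of the reads with the end of the 23-nt form, 22.8% (22.1 to 23.6) started at base 2, which were 2641 reads of 22 nt. Of those with the end of the 22-nt entry 3.99% did, and of those with the end of the 21-nt form 0.862% (0.748 to 0.992). The same order held in all 8 libraries, with overlapping intervals for the lower 2 ends in intestine, ovaries and testes. With the longest end the shifted start made up 29.8% (25.5 to 34.5) for intestine, 28.3% (23.7 to 33.4) for slow muscle, 24.0% (22.3 to 25.7) for heart, 23.3% (22.2 to 24.3) for brain, 19.3% (15.4 to 23.9) for liver, 18.8% (16.6 to 21.1) for eye, 18.7% (16.0 to 21.7) for ovaries and 15.5% (11.1 to 21.3) for testes.

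**Figure D5:**
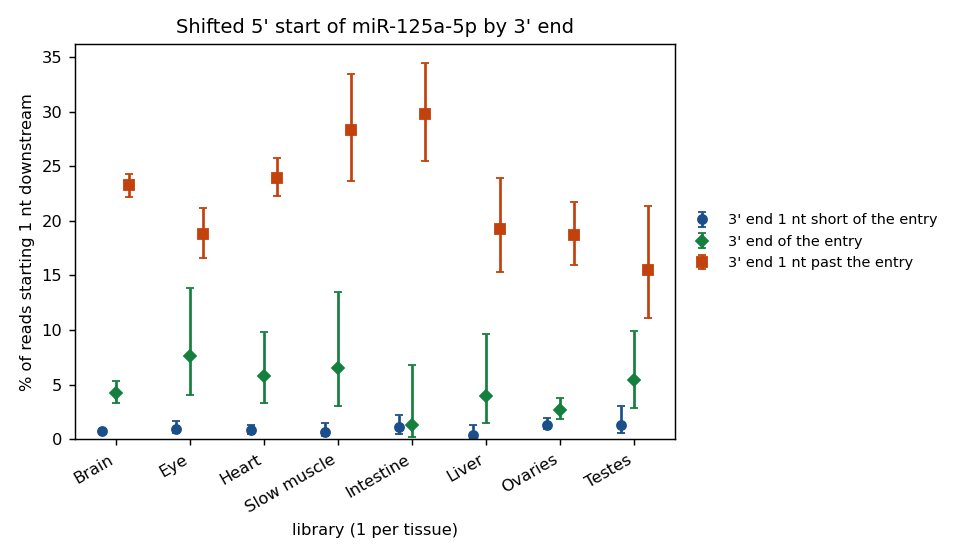
Share of miR-125a-5p reads that start 1 nt downstream of the entry (y axis, in percent) among reads with each of 3 ends at the 3′ side, in the 8 libraries (x axis). Bars are 95% Wilson intervals. With the end 1 nt past the entry the share lies between 15.5% and 29.8%, and with the end 1 nt short of it between 0.349% and 1.34%.

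The other arms rarely started at base 2. For miR-125b-5p the share was 0.562% with the end of the 22-nt entry, 0.743% with the end 1 nt shorter, 0.714% with the added A and 1.72% (1.16 to 2.55) with the added C, the base matched to the *Takifugu* entry. For miR-100-5p it was 0.208% with the 21-nt end, 0.495% with the entry end, 0.807% with the added A, 1.95% with the added C, 2.03% with the added T and 4.27% (3.49 to 5.21) with the added G. The seed of the shifted miR-125 start was carried by 1.16% of all 5p member reads.

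The opposite strand of the hairpin was scarce for the 3 members with a 3p sequence in the files. Its main sequences, with bases 2 to 8 in capitals, were the following.
miR-100-3p: cAAGCTCGtatctataggtat
miR-125a-3p: aCAGGTGAggtccttgggaaca
miR-125b-3p: aCGGGTTGggttcttgggagct

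By the arm names of the files, miR-125a had 42582 reads of 5p and 142 of 3p, a ratio of 299.9 (95% interval 254 to 356). Grouped by sequence, which moves reads between names and takes in precursor-only reads, miR-125a had 41754 reads of 5p and 355 of 3p. There were then 118 reads of 5p per read of 3p for miR-125a (106 to 131), 604 for miR-100 (536 to 683) and 1419 for miR-125b (1142 to 1787). The miR-125b group includes the reads named miR-125-5p. All 267 reads of miR-100-3p and 77 of 81 of miR-125b-3p were precursor-only, against 213 of 355 of miR-125a-3p. By these counts, which depend on the entries in the database, miR-125a kept the largest share of its 3p arm. Its ratio was 33.0 (23.8 to 47.1) in intestine and 37.5 (26.7 to 54.4) in slow muscle, below the 84.2 to 199.8 of the other 6 libraries, where only the interval of liver (49.0 to 159) overlapped that of slow muscle. For miR-100 the ratio was between 412 and 652 in brain, eye, heart, slow muscle and intestine, and it was 1896.5 (740 to 6962) in liver on 4 reads of the 3p arm and 2443 (1047 to 7526) in ovaries on 5. In testes neither miR-100-3p nor miR-125b-3p had a read. The 95% Wilson interval of 0 reads there reaches 1.82 RPM, and the floor of 3 reads is 1.42 RPM.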

How the data were processed

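The authors sequenced small RNA libraries on a SOLiD instrument, dropped reads of low quality, trimmed adaptors with a script of their own and matched the 18–25 nt reads to miRBase entries in CLC genomics workbench with 0 mismatches, allowing ends to differ by a few bases. The authors deposited unnormalized read counts, 1 for each distinct sequence of a library. The column of expression values repeats them, and header lines repeated inside the files were dropped. The files hold only annotated reads, and reads that the study annotated under looser criteria were not used here. In each of the 8 libraries the deposited share of the 18–25 nt reads was slightly above the share that the paper gives for this step. Why they differ was not tested.

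Reads were summed by name (text before any slashes, copy number dropped) and arm. RPM used the 18–25 nt totals of the study's read table. Annotated reads per library ranged from 54540 (testes) to 1207961 (intestine), and a level of 3 reads (0.630 to 2.49 RPM) was the floor. Sequences were also placed without gaps on the nearest of the 6 main entries (14 nt or more shared, no more than 2 mismatches, starts within 4 nt), a grouping chosen after seeing the data. Of these reads, 5031 fitted several entries equally well and went to miR-100 (5028) or miR-125a (3).

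Named arms are those with 100 RPM in a library. The other named miRNAs are the 5 most like each of the 2 most abundant arms, and fixed lists of let-7 and miR-10 arms. Ends were described for arms with 50 reads in a library. The members and lists were chosen with earlier results of these data known. The miR-99b forms, the shifted starts by 3′ end and the most common ends in liver and heart were singled out by their values and carry no test. Comparisons between libraries used exact binomial, Fisher's exact and exact permutation tests, all two-sided. The binomial test was tried on simulated reads that varied by counting error only. Without amplification or spread between libraries, this cannot show that it holds for the real libraries. Alternatives were other denominators, edgeR's TMM scaling, other match classes and other thresholds. Python 3.11.15, numpy 2.4.6, scipy 1.17.1, pandas 2.3.3, matplotlib 3.10.9, R 4.3.3 and edgeR 4.0.16 were used.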

Additional observations from a re-analysis of the deposited data

Results flagged for a closer look

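The level of miR-125a-5p in brain, 9703 RPM, lay far above the other 5 somatic libraries, of which eye with 2099 RPM was next. The gap to eye was 0.814 of the range of the 6 libraries. The ratio of miR-125a-5p to miR-125b-5p in brain, 0.561, likewise stood apart from the next somatic value, 0.315 in intestine, with a gap of 0.702 of the range. These were 2 of 10 groups examined in this way, with a cut-off of 0.625, and both rest on the same brain reads of miR-125a-5p. That cut-off flags about 1 in 20 groups of 6 replicates by chance. The 6 libraries are different tissues rather than replicates, so this rate does not apply to them.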

How the results depend on the processing

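No paired analysis was possible because each tissue had 1 library. The ratio of miR-100-5p to miR-125b-5p depended most on which forms were counted. With identical reads alone it was 0.526 in brain, 0.343 in eye, 0.659 in heart, 0.934 in slow muscle, 0.621 in intestine, 0.798 in liver, 0.494 in ovaries and 0.131 in testes, since this leaves out the 21-nt form of miR-100 and its form with an added A. With all miR-99 and miR-100 over all miR-125 5p names it was 0.923, 0.863, 1.41, 1.82, 1.26, 1.24, 0.763 and 0.309 in the same order. Grouped by sequence, it was 1.36, 1.04, 1.69, 2.15, 1.60, 1.53 and 0.988 in brain to ovaries. The number of pairs of libraries with a different ratio was 27 of 28 under each of these 3 settings, as by name. Per annotated read the members called were 6 of 7 that could pass, instead of 3, higher in brain than eye (50% of all names), 7 of 7 instead of 4 in heart than slow muscle (48.9%), 4 of 6 instead of 2 in ovaries than testes (36%), and 1 of 6 instead of 0 in testes (46.7%). With a minimum of 100 RPM they were 7 of 8 in brain (52.9% of names), 7 of 7 in heart (39.7%), 5 of 5 in liver (49.6%) and 6 of 6 in ovaries (75.8%). The arms lower in both gonads numbered 0 instead of 1 per annotated read (14% of names) and with TMM scaling, where the share of names is not given here. The 5p to 3p ratio of miR-125a moved from 299.9 to 117.6 when reads were grouped by sequence, with precursor-only reads taken in. No arm reached a tau of 0.9 on the log2 scale or per annotated read, but the share of all names that did so on these scales is not given here. Under every setting tried, 2 arms had a most common form that differed between libraries, miR-100-5p in liver and miR-125a-5p in heart. For miR-125a-5p in heart the leading forms were level, with 1830 and 1810 reads. The share of all names with such a difference is not given either. With 1 library per tissue, variation between animals, amplification and library preparation is not covered by any value.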

Other observations

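Reads with another first base were recorded for both main arms. miR-100 forms of 21 and 22 nt beginning with G instead of A made up between 0.786% (liver) and 2.02% (heart) of the reads with either start, and eye had 1.80% (1.51 to 2.15). miR-125b reads of 22 nt beginning with C instead of T made up 0.246% (intestine) to 0.678% (testes).

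A total of 23 member reads in 13 sequences were the reverse complement of a member arm, 0.0069% of all member reads, and 24 reads could be placed on no member arm.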
